A study of Mus musculus with 4 samples.

Results

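The regions described here are stretches of the mouse genome where the chromatin proteins HCF1 and OGT were both called by ChIP-seq and the deubiquitinase BAP1 was not. They were found by joining the 3 deposited peak lists wherever peaks overlapped or touched. Merged regions on chromosomes 1 to 19 were kept if they held at least 1 HCF1 peak, at least 1 OGT peak and no BAP1 peak. This gave 1744 of 34244 autosomal merged regions, or 5.09% (95% interval 4.86 to 5.33). They made up 23.5% (22.5 to 24.4) of the 7435 regions with both HCF1 and OGT, and the other 5691 of those held all 3 proteins. That share was 46.0% with peaks trimmed to 200 bp around their middle, and a score of at least 100 in all 3 lists left 925 regions. The members were chosen by the peak calls of all 3 lists, so every value from those lists below is a description and no test was made on it.

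ChIP-seq, which sequences the DNA fragments that come down with a precipitated protein, was done on primary bone marrow derived macrophages of C57BL/6 mice, grown in L929 conditioned medium and not treated further. BAP1 was precipitated with anti-FLAG from macrophages whose genotype is BAP1-3X Flag Tagged KI, in which BAP1 itself carries the tag. HCF1 and OGT were precipitated with their own antibodies from BAP1 WT cells, and an input library also came from BAP1 WT cells. There was 1 library per protein. The labels give no age, sex or number of mice. Each mention of BAP1 being absent therefore means that no peak was called with anti-FLAG in tagged cells. The protein, the antibody and the genotype cannot be told apart in that difference. The source field of the labels names progenitors and the cell type field names macrophages; no expression was measured, so cell type markers could not be checked.

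HCF1 is a large cofactor that does not bind DNA itself and links sequence-specific transcription factors to enzymes that modify chromatin. OGT transfers the sugar O-GlcNAc onto nuclear and cytoplasmic proteins, and it also cleaves HCF1 to its mature form. BAP1 removes ubiquitin from histone H2A, binds HCF1 and is known to be found in complexes with OGT.

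The regions without BAP1 were mostly simple and narrow. Exactly 1 HCF1 peak and 1 OGT peak made up 1556 of them, or 89.2% (87.7 to 90.6), against 70.7% of the regions with all 3 proteins. Another 116 held several HCF1 peaks and 1 OGT peak, 47 held 1 HCF1 peak and several OGT peaks, and 25 held several of both. The median region was 1242 bp wide (1208 to 1267), with quartiles of 882 and 1749 bp and a range from 257 to 17711 bp (a median of 275 bp with trimmed peaks). Regions with all 3 proteins had a median of 2097 bp, BAP1 and HCF1 without OGT 1409 bp, HCF1 alone 534 bp and OGT alone 626 bp. A BAP1 peak, with a median of 1648 bp in regions of all 3 proteins, adds its own width to a region. It can also join HCF1 and OGT peaks that would otherwise lie apart. Greater width and more peaks with BAP1 thus follow in part from the joining, and how far was not tested. In all, the 1744 regions held 1892 of 30912 autosomal HCF1 peaks, 6.12%, and 1827 of 10236 OGT peaks, 17.8%.

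Both proteins had lower peak scores here than in regions of all 3 proteins, and the gap was wider for HCF1. The score is 1 number that the authors deposited with each peak, the sources used here do not define it, and it starts at 50 in each list. Because a score can grow with the depth of its library, a region was given the percentile of its highest-scoring peak within that protein's own list. HCF1 scores in the regions without BAP1 ran from 50.05 to 3100, with a median of 131 and quartiles of 82.2 and 241. Their median HCF1 percentile was 58.2 (56.8 to 59.8), against 86.1 (85.6 to 86.6) with all 3 proteins and 29.8 for HCF1 alone. In the 6899 regions of BAP1 and HCF1 without OGT it was 66.0 (65.3 to 66.7), much nearer to the members, and the HCF1 peak there was as wide (medians of 924 and 924.5 bp). OGT scores ran from 50 to 2342.67, with a median of 83.2 and quartiles of 61.2 and 129. Their median OGT percentile was 47.4 (45.6 to 49.9), against 61.7 with all 3 proteins and 23.2 for OGT alone. For both proteins the regions thus lay between those of the protein alone and those of all 3.

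The OGT score was under 60, near the limit of calling, in 401 of 1744 regions (23.0%), close to the 21.8% of all autosomal OGT peaks. The HCF1 score was under 60 in 137 regions (7.86%), against 19.4% of all autosomal HCF1 peaks. A region takes its highest-scoring peak, so shares of regions and of single peaks are unlike measures. Over regions, HCF1 was under 60 in 1.16% with all 3 proteins, 7.16% with BAP1 and HCF1 without OGT and 33.8% with HCF1 alone. OGT was under 60 in 13.0% with all 3 proteins and 48.0% with OGT alone. Both percentiles were under 50 in 399 regions, or 22.9%, against 5.17% of the regions with all 3 proteins. At the other end, both percentiles were 90 or above in 26 regions, or 1.49%, against 540, or 9.49%, with all 3 proteins. The OGT percentile exceeded the HCF1 percentile in 40.9% of the regions without BAP1 and in 19.4% of the others. Across regions the ranks of the HCF1 and OGT scores were weakly related, with a Spearman rho of 0.20 over the 1744 regions and 0.37 over the 5691 with BAP1. The points of each rho share the same pair of libraries.

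**Figure D1:**
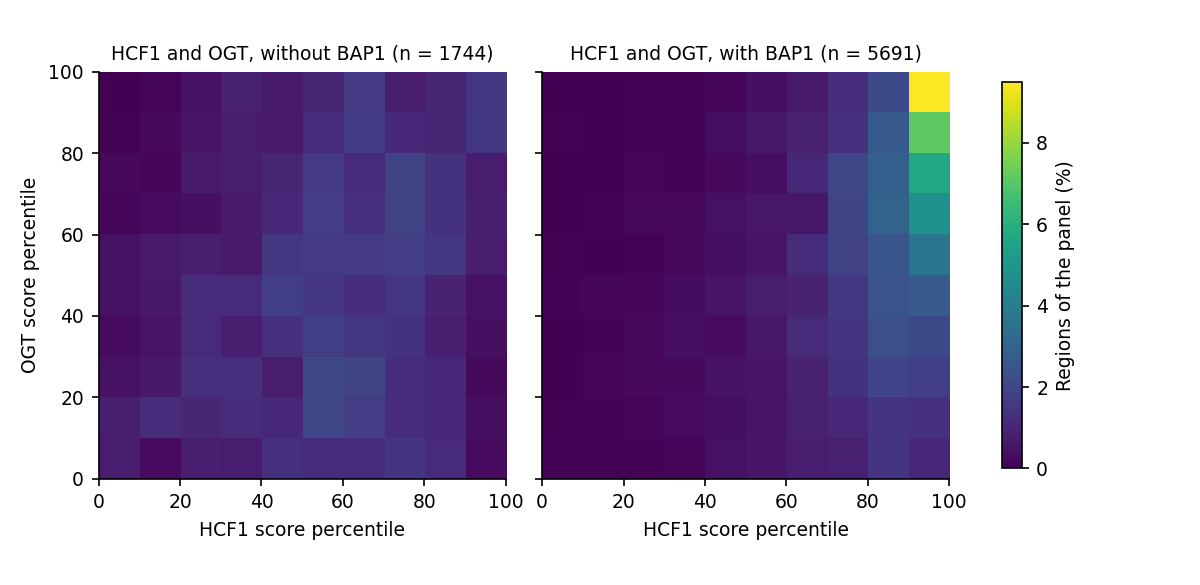
Share of regions (%, colour) by HCF1 score percentile (horizontal axis) and OGT score percentile (vertical axis), in steps of 10, for HCF1 and OGT regions without BAP1 (left, 1744 regions) and with BAP1 (right, 5691 regions). The left panel is spread over the whole plane, with 1.49% of its regions at 90 or above for both proteins, and the right panel is densest in that corner, with 9.49%.

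By deciles of each protein's own list, the share of HCF1 and OGT regions without BAP1 differed much more over the HCF1 score than over the OGT score. In the lowest decile of the HCF1 list, 64 of 91 such regions lacked BAP1, or 70.3% (59.8 to 79.5). The share fell at each step, to 46.7% in the sixth decile, 22.6% in the eighth and 5.16% (4.30 to 6.12), 123 of 2386, in the highest. By deciles of the OGT list the share was 33.3% (29.1 to 37.8) in the lowest, 36.7% in the next and 14.7% (12.5 to 17.2) in the highest. Among regions that held both proteins, BAP1 was thus lacking in 140 of 950 in the top OGT decile and in 123 of 2386 in the top HCF1 decile. The lists differ in length, with 31421 HCF1 and 10337 OGT peaks. The HCF1 deciles held from 91 to 2386 of these regions and the OGT deciles from 477 to 950. A step in one list is therefore not a like step in strength in the other.

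**Figure D2:**
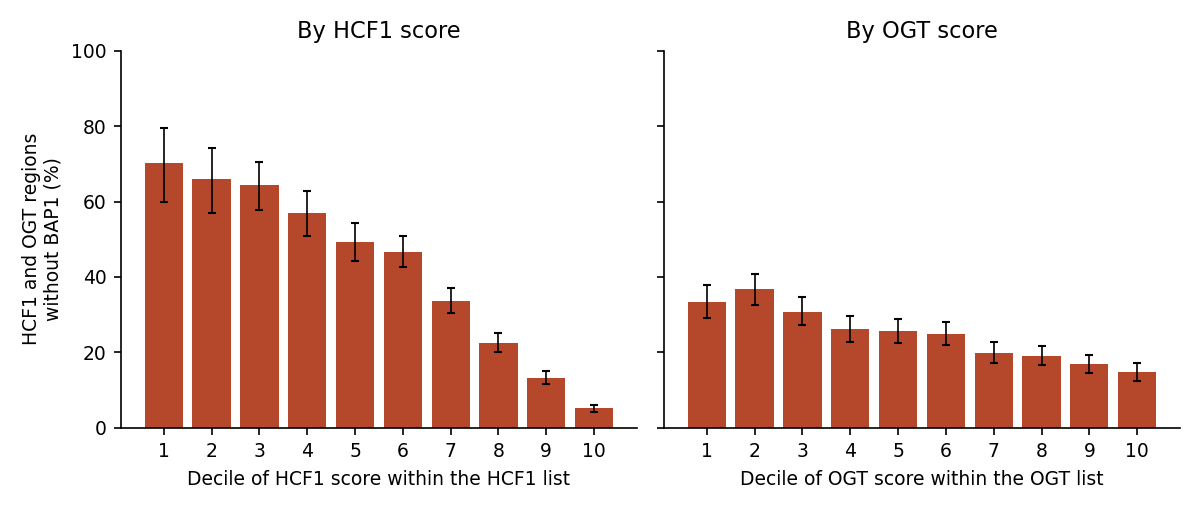
Share (%) of HCF1 and OGT regions in which no BAP1 peak was called, by decile of the HCF1 score (left) and of the OGT score (right) within each list, with exact 95% intervals as bars. The share goes from 70.3% to 5.16% over the HCF1 deciles and from 33.3% to 14.7% over the OGT deciles.

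Within quintiles of HCF1 score, the share without BAP1 fell with the OGT score in the top and bottom quintiles. In the others it followed the OGT score in no single direction. In the middle quintile of the HCF1 list (scores of 83.63 to 137.37), the share without BAP1 was 47.8%, 49.0%, 48.1%, 50% and 42.2% from the lowest to the highest quintile of OGT. In the fourth HCF1 quintile it was 32.6%, 27.5%, 25.1%, 25.1% and 27.6%. In the second HCF1 quintile it was 61.1%, 56.4%, 60.4%, 55.6% and 73.8%, highest where OGT was strongest. In the top HCF1 quintile, which held the most regions, it was 14.2% (10.8 to 18.3), 8.75%, 8.87%, 7.46% and 6.80% (5.50 to 8.30). In the bottom one, which held few regions, it was 72.6% (60.9 to 82.4), 68.75%, 68.4%, 60% and 50% (23.0 to 77.0), where the end intervals overlapped.

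The reverse comparison, at like HCF1 score, asked whether OGT differed with and without BAP1. In the third HCF1 quintile the median OGT percentile was 45.5 in 468 regions without BAP1 and 45.2 in 513 regions with it. It was 30.2 and 40.1 in the lowest quintile, 41.6 and 39.0 in the second and 50.5 and 54.0 in the fourth, with intervals that overlapped in each case. In the top quintile it was 61.9 (55.0 to 67.3) in 321 regions without BAP1 and 68.6 (67.4 to 69.8) in 3557 with it, and there the intervals just failed to overlap. HCF1 scores were not alike within that quintile, since 123 of the 321 and 2263 of the 3557 were in the top HCF1 decile. At like HCF1 score, the median HCF1 peak was wider without BAP1 in every quintile, with intervals apart only in the fourth. From the lowest quintile it was 529 and 478.5 bp, 613 and 575 bp, then 781.5 and 759 bp. In the fourth quintile it was 1179 bp (1106 to 1238) without BAP1 and 1062 bp (1033 to 1080) with it. In the top quintile it was 2274 bp (2043 to 2446) and 2008 bp (1965 to 2047). The OGT peak measured 890 and 873 bp in the third quintile, with overlapping intervals. It measured 1043 and 936 bp in the fourth and 1308 and 1151 bp in the top one, with intervals apart. The OGT peak was slightly narrower without BAP1 in the lowest (742 and 763.5 bp) and second (785 and 799 bp).

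Set beside the regions of all 3 proteins ordered by BAP1 score, the regions without BAP1 came next after those with the weakest BAP1 peaks. The median HCF1 percentile was 70.0, 77.1, 85.8, 90.7 and 95.8 from the lowest quintile of BAP1 score (50.02 to 97.88) to the highest (374.83 to 3100), and 58.2 with no BAP1 peak. The median OGT percentile was 50.8, 53.9, 57.8, 63.9 and 79.1, and 47.4 with no BAP1 peak. The upper quartile of HCF1 without BAP1, 75.1, exceeded the median of the lowest BAP1 quintile, so the distributions overlapped widely.

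**Figure D3:**
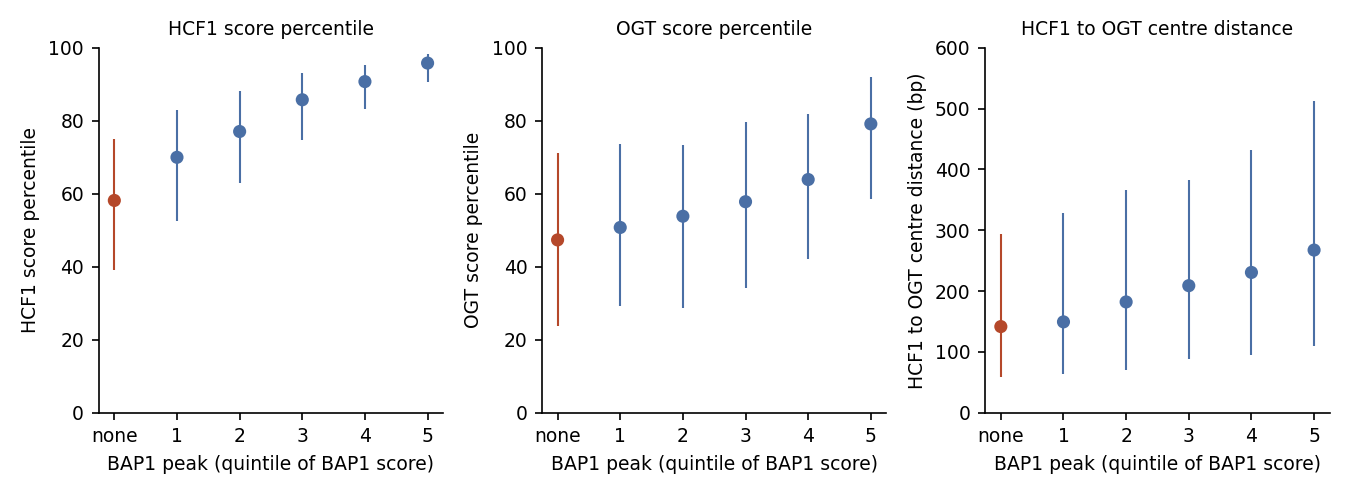
Median (point) and quartiles (line) of the HCF1 score percentile, the OGT score percentile and the HCF1 to OGT centre distance in bp, for regions with no BAP1 peak (red, 1744 regions) and for quintiles of the BAP1 score in regions of all 3 proteins (blue, 1138 or 1139 regions each). All 3 medians are lowest with no BAP1 peak (58.2, 47.4 and 142 bp) and rise with the BAP1 score to 95.8, 79.1 and 267.5 bp.

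The number of regions without BAP1 depends on where the BAP1 list ends. Of the regions with all 3 proteins, 242 had no BAP1 score of 60 or more, and counting those as lacking BAP1 would give 1986 regions, or 26.7% of HCF1 and OGT regions. With a limit of 150 the count would be 3856 (51.9%) and with 200 it would be 4605 (61.9%). Just outside the rule were regions whose BAP1 peak barely reached HCF1 and OGT. BAP1 shared a median of 1447 bp with the other proteins' peaks, and under 100 bp in 3 regions. The least was 26 bp, at chr8:60053015-60054372 (mm9, as are all positions), where the BAP1, HCF1 and OGT scores were 53.77, 53.92 and 51.46. The next, at chr5:114442271-114444340, shared 57 bp with a BAP1 score of 87.74, and chr10:126973959-126975624 shared 76 bp with a BAP1 score of 84.63. The remaining named examples, chr15:31153460-31155141 and chr11:70248897-70250950, shared 121 and 149 bp.

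Just inside the rule were 55 regions (3.15%) with a BAP1 peak no more than 200 bp away, 29 of them within 100 bp. The nearest was chr19:4202365-4203470, 5 bp from a BAP1 peak of score 210.86, with an HCF1 score of 167.8 and an OGT score of 53.02. The region at chr5:32439647-32441644 lay 9 bp from a strong BAP1 peak of score 711.79, and its HCF1 and OGT scores were 165.81 and 59.51. At chr7:134156382-134157364 the gap was 11 bp, at chr5:123846708-123847422 it was 14 bp and at chr17:88510979-88512166 it was 20 bp. In all 5 the gap was shorter than 1 sequenced fragment, since fragments were selected at 175 to 225 bp.

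The members as a whole lay about as far from BAP1 as other regions that lacked it. The median gap to the nearest BAP1 peak was 11725 bp (10700 to 13058), with quartiles of 3517 and 34076 bp. It depends on the calls, and was 2133 bp with peaks trimmed to 200 bp and 25145 bp with a score of at least 100 in all 3 lists. As deposited, the same median was 11442 bp for HCF1 alone and 12434 bp for OGT alone. A BAP1 peak lay within 5 kb of 568 regions, or 32.6% (30.4 to 34.8), against 33.9% of all autosomal regions without BAP1. Those alternatives gave 59.5% and 17.9% for the members. Within 1 kb the share was 10.6%, against 14.4% for HCF1 alone and 9.15% for OGT alone. It reached 45.8% at 10 kb, 81.8% at 50 kb and 90.4% at 100 kb.

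**Figure D4:**
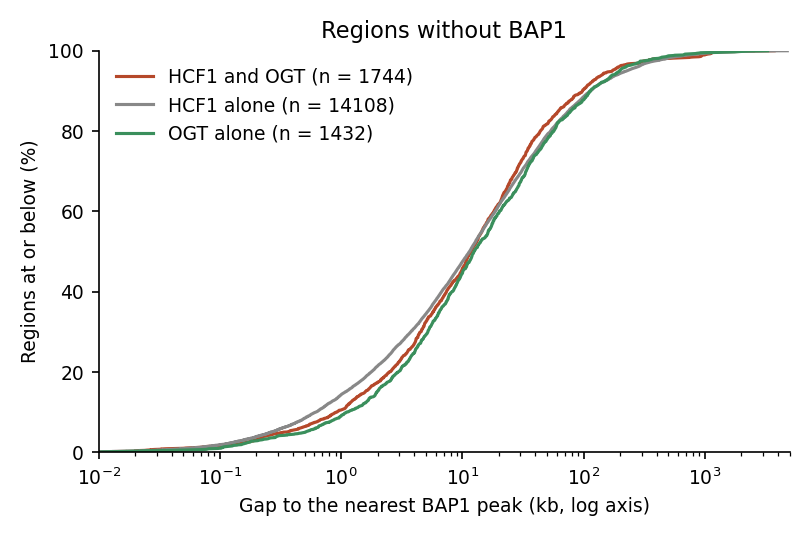
Cumulative share of regions (%) by gap in kb (log axis) to the nearest BAP1 peak, for the 3 kinds of region without BAP1. The curves of HCF1 and OGT together, HCF1 alone and OGT alone run close to each other and have medians of 11725, 11442 and 12434 bp.

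The nearest BAP1 peak was of middling strength, with a median score of 98.5 and a median percentile of 43.2 in the BAP1 list. It belonged to a region of all 3 proteins for 47.3% of members, while such regions held 34.8% of all BAP1 peaks. Distance from BAP1 did not order the members by strength. The median HCF1 percentile was 59.4 in the 184 regions within 1 kb of BAP1, 58.2 in the 614 from 1 to 10 kb, 57.7 in the 778 from 10 to 100 kb and 59.95 in the 168 beyond 100 kb. The OGT percentile over the same bins was 40.5, 45.9, 51.2 and 41.9.

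HCF1 and OGT peaks lay close together in these regions, as the rule requires. With no BAP1 peak to bridge them, HCF1 and OGT peaks must overlap or touch. The centres of the nearest HCF1 and OGT peaks were a median of 142 bp apart (130.5 to 153), with quartiles of 58.4 and 293 bp, against 204.5 bp (194 to 212.5) with all 3 proteins. The median distance without BAP1 was thus less than the length of 1 fragment. HCF1 peaks were also narrower there, with a median of 924.5 bp against 1528 bp with all 3 proteins. Centres were within 100 bp in 40.3% of the regions without BAP1, within 250 bp in 68.9% and within 500 bp in 89.9%. At like HCF1 score the intervals with and without BAP1 overlapped except in the lowest quintile. There the median distance was 95 bp (72 to 122) without BAP1, in 147 regions, and 184 bp (143 to 273) with it, in 70 regions. In 15 of those 70 the HCF1 and OGT peaks did not overlap, which the rule allows in a member only if the peaks touch. In the other 55 the median was 144 bp (99 to 199.5), an interval that overlapped that of the members. The distance was 92.5 bp without BAP1 and 112 bp with it in the second quintile, 129.5 and 121 bp in the third quintile, 145 and 146.5 bp in the fourth and 280.5 and 259.5 bp in the top one. Over all quintiles the peaks did not overlap in 60 regions with all 3 proteins. With peaks trimmed to 200 bp the members' median distance was 75 bp, where the rule allows at most 200 bp.

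**Figure D5:**
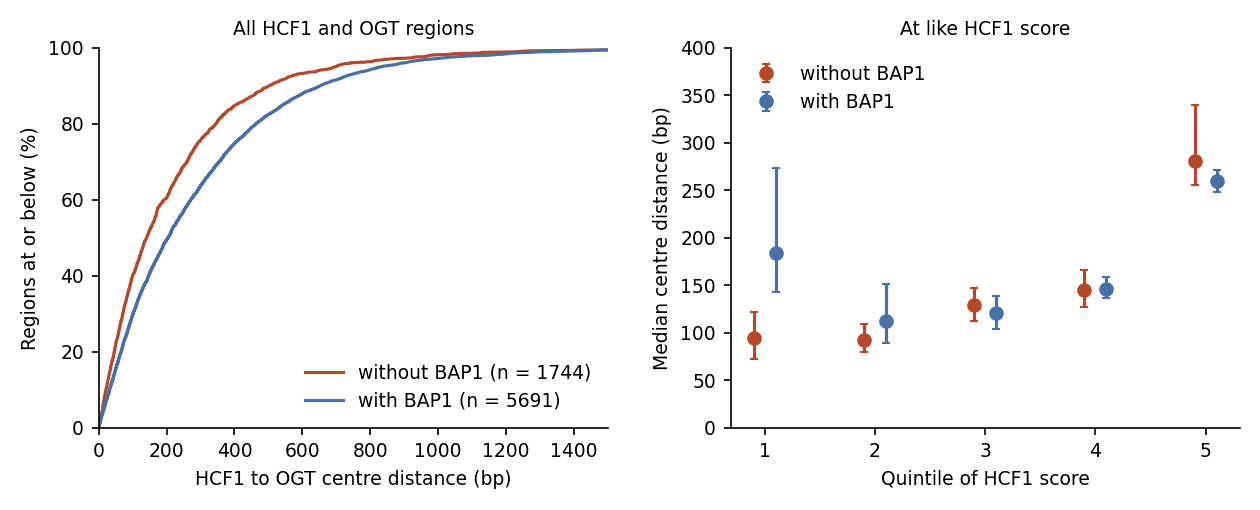
Left, cumulative share of regions (%) by distance in bp between the centres of the nearest HCF1 and OGT peaks, with and without BAP1. Right, median distance with its 95% interval by quintile of HCF1 score, where the 2 kinds of region differ in the lowest quintile (95 against 184 bp, the latter with 15 of 70 regions whose peaks do not overlap) and have overlapping intervals in the others.

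Neither protein's peak was as a rule inside the other's. The OGT peak lay wholly inside the HCF1 peak in 399 regions (22.9%), the HCF1 peak inside the OGT peak in 492 (28.2%), and the other 853 (48.9%) overlapped in part. With all 3 proteins OGT lay inside HCF1 in 42.3% and HCF1 inside OGT in 12.4%. The 399 regions with OGT inside HCF1 had a median HCF1 percentile of 76.5 and an OGT percentile of 44.1. In the 492 with HCF1 inside OGT the order was the other way, 44.6 for HCF1 and 56.8 for OGT, and the centres were 60 bp apart. Nesting thus went with which peak scored higher in its list. At like HCF1 score, OGT lay inside HCF1 in 53.3% of the top quintile without BAP1 and 56.9% with it. In the lowest quintile HCF1 lay inside OGT in 52.4% (44.0 to 60.7) without BAP1 and 31.4% (20.9 to 43.6) with it. Counted over overlapping peaks alone, the latter was 22 of 55, or 40% (27.0 to 54.1).

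The strongest regions for both proteins were few and broad. Ranked by the lower of the HCF1 and OGT percentiles, the first was chr2:127159615-127164970, 5356 bp wide, with an HCF1 score of 1283.9, an OGT score of 814.84 and no BAP1 peak within 62.7 kb. The second, chr14:63740286-63757996, was also the widest of all at 17711 bp. It held 1 HCF1 peak of score 1535.57 and 3 OGT peaks up to 576.9, and a BAP1 peak of score 704.04 began 219 bp from its edge. The third, chr7:86056481-86060602, had scores of 1434.4 for HCF1 and 574.3 for OGT, 15.1 kb from BAP1.

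Chromosome 5 held 4 of the 10 strongest. At chr5:92773071-92779076 HCF1 reached 3100, the highest score among the members, which 4 of them shared, with OGT at 533.07. At chr5:121224000-121228977 the scores were 1160.49 and 623.07, and the nearest BAP1 peak was 152.7 kb away with a score of 65.31. At chr5:115371402-115379331 they were 2615.65 and 497.16, and at chr5:92796368-92799877 they were 1021.43 and 407.33. The remaining 3 were chr11:48680041-48687222 (HCF1 2900.02, OGT 435.65), chr15:74784586-74792075 (1735.92 and 427.53) and chr16:97665258-97679488 (1095.81 and 408.99). Of these 10 regions, only the one on chromosome 14 had a BAP1 peak within 1 kb.

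The farthest from BAP1 among regions with both percentiles of 50 or more was chr5:58108177-58111378, 3718 kb from the nearest BAP1 peak. Its HCF1 score was 1735.08 (percentile 99.2) and its OGT score 107.38 (percentile 62.6). Next was chr11:24999926-25000568, 1204 kb away, a narrow region of 643 bp with scores of 478.01 and 343.42. The other 3 lay near each other on chromosome 12, all more than 1 Mb from BAP1. They were chr12:27153294-27159951 (HCF1 3100, OGT 303.69), chr12:27125200-27141754 (515.81 and 146.85) and chr12:27083319-27083945 (136.8 and 135.35).

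Some regions were strong for 1 protein and near the limit for the other. Ranked by the difference between the percentiles, the greatest excess of HCF1 over OGT was at chr8:97055648-97058230, with an HCF1 score of 609.67 (percentile 91.7) and an OGT score of 50.52 (percentile 1.499). At chr11:57997054-58000152 the scores were 893.99 and 51.98, and at chr3:96136277-96138577 they were 1152.58 and 53.01. In each of these the OGT peak, of 467 to 741 bp, lay inside a much wider HCF1 peak. By the same measure the greatest excess of OGT over HCF1 was at chr2:11451068-11452549, with an HCF1 score of 56.87 and an OGT score of 490.12, 4.13 kb from BAP1. At chr18:78076050-78076828 the scores were 56.47 and 365.13, and at chr16:44242824-44244018 the scores were 52.51 and 189.55.

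Width and strength did not always go together. Regions over 5 kb numbered 32 (1.83%), against 354 (6.22%) with all 3 proteins, whose width includes the BAP1 peaks. Among the 5 widest, chr11:86392050-86401972 (9923 bp) had an HCF1 score of 3100 and an OGT score of 387.02, with a BAP1 peak 239 bp away. By contrast chr11:3090105-3100266 (10162 bp), close to the start of its chromosome, had scores of only 75.37 and 54.44. In the first 4 Mb of the chromosomes lay 15 members, 0.860%, and 1.02% of the regions with all 3 proteins.

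As groups, the 123 regions in the top decile of HCF1 and the 140 in the top decile of OGT looked different. The groups share the regions in the top decile of both. Each was chosen by a score with which width and nesting go, so the contrast may follow from the choice. The former had a median width of 3607 bp, a centre distance of 460.5 bp, a median OGT percentile of 73.1 and a median gap to BAP1 of 20422 bp. The latter had a median width of 1675 bp, a centre distance of 148 bp, a median HCF1 percentile of 67.0 and a gap of 14820 bp. OGT lay inside HCF1 in 57.7% of the former, and HCF1 inside OGT in 42.9% of the latter.

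The regions occurred on every autosome. As a share of all merged regions they made up from 3.99% on chromosome 9 to 6.20% on chromosome 6. As a share of HCF1 and OGT regions they made up from 18.7% (15.6 to 22.1) on chromosome 7 to 30.3% (25.6 to 35.2) on chromosome 6. Chromosome 11 held the most, 172, and chromosome 18 the fewest, 38. Of 1912 windows of 1 Mb with any merged region, 57.7% held none and 79 (4.13%) held 5 or more.

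Most members lay apart from other members, and 1 locus stood out. With members up to 10 kb apart grouped together, 1385 of 1744 (79.4%) had no other member in their group, 131 groups were pairs and 25 groups held 3 or more. The largest by far was at chr11:119264838-119336395, where 18 members lay within 71.6 kb and covered 81.0% of it. They held 26 HCF1 peaks and 28 OGT peaks. The stretch held 26 merged regions in all, the other 8 being HCF1 alone, and no BAP1 peak lay closer than 9.84 kb. HCF1 scores ran from 155.76 to 1260.38, with percentiles from 63.9 to 97.9 and a median percentile of 83.8. OGT scores ran from 50.92 to 197.74, with a median percentile of 57.7. Neighbouring members were a median of 179 bp apart, and 13 of the 17 gaps were 1 kb or less, so the 18 regions are not 18 independent sites. The highest HCF1 score was in chr11:119298193-119305716, a region of 7524 bp with an OGT score of 184.3.

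That locus made chr11:119000001-120000000 the window with the most members, 19 of its 85 merged regions, and 37 BAP1 peaks lay elsewhere in it. The next was chr19:11000001-12000000, with 13 members among 101 regions. There 85 of the 101, or 84.2%, had no BAP1 peak, against 50.5% of all autosomal regions, and 71 were HCF1 alone. The third was chr2:167000001-168000000, with 10 members among 88 regions, 22 of which held all 3 proteins. The second-largest group, at chr5:92773071-92799877, included both chromosome 5 regions named above that lie within it. Its 5 members spanned 26.8 kb, with HCF1 scores of 3100, 555.36, 395.06, 93.4 and 1021.43 in order along the chromosome and OGT scores of 533.07, 473.37, 85.62, 107.91 and 407.33.

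Members had close neighbours more often than merged regions in general. Another merged region lay within 5 kb of 67.2% of members, against 56.9% of all autosomal regions, and the median gap was 1675 bp against 3396 bp. The nearest neighbour was HCF1 alone for 49.4% of members (42.6% of all regions). It was another member for 11.4% (9.96 to 13.0), against 5.39% of all regions and 5.68% of regions with all 3 proteins. Without the 18 members of the chromosome 11 locus that share was 10.9%. The neighbour was BAP1 and HCF1 for 11.5% of members (19.4% of all regions), BAP1 alone for 5.85% (10.9%) and all 3 proteins for 17.3% (16.9%).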

How the data were processed

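For each of the 3 proteins the authors deposited 1 peak list in mm9, with a position and a score per peak. GSNAP and MACS 1.4 were used, per the submitters' processing notes; the sources used here give neither settings nor what the score is. Libraries were amplified for 18 cycles and read depths are unknown. Lists were merged in Python 3.11.15 (pandas 2.3.3, scipy 1.17.1), starts were read as counted from 0, and positions are printed counted from 1. A region took its highest-scoring peak per protein, and percentiles, quintiles and deciles of score are of that protein's whole list (BAP1 quintiles, of the regions of all 3 proteins). Shares have exact Clopper-Pearson 95% intervals and medians binomial order-statistic intervals, for counting error only; neighbouring regions are not independent, and with 1 library per protein nothing was tested. The code was tested on simulated peaks. The members, lists and naming rules were chosen with earlier results of these data known. Regions named were the 10 strongest for both proteins, the 5 farthest from BAP1, nearest to it and widest, the 3 most unequal in percentile each way and the 3 fullest windows; loci of grouped members were chosen after their values were seen. The supplied gene table is for another build, so genes, sequences and motifs were not analysed here.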

Additional observations from a re-analysis of the deposited data

Results flagged for a closer look

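Outside the autosomes, which the comparisons do not use, 15 of 50 HCF1 and OGT regions on chromosome X had no BAP1 peak, or 30.0% (17.9 to 44.6), with median percentiles of 56.0 for HCF1 and 32.3 for OGT. On unplaced or random sequences it was 5 of 19, or 26.3% (9.15 to 51.2). Both stand out only as signal in data left aside, and their intervals include the autosomal 23.5%.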

How the results depend on the processing

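The count of 1744 depends on the settings, and so does which regions are counted. Counts within 1.5 times of it came from trimming peaks to 200 bp around their middle (1936), requiring no BAP1 within 1 kb (1560), leaving out peaks over 5 kb (1844), lists of equal length (1246), joining peaks up to 1 kb apart (1490), centres within 250 bp (2036), reciprocal overlap of 50% (1987) and leaving out the first 4 Mb of each chromosome (1729). Of the 1744, equal list lengths nevertheless kept 653 (37.4%), trimmed peaks 1055 (60.5%) and a score of at least 100 in all 3 lists 488 (27.98%). A score of at least 100 gave 925 regions when applied to all 3 lists, 490 when applied to HCF1 and OGT and 2927 when applied to BAP1. The last of these, and the one on chromosome starts, were added after seeing the data.

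Trimmed peaks gave a median width of 275 bp, a centre distance of 75 bp, a BAP1 gap of 2133 bp with 59.5% within 5 kb, percentiles of 66.9 for HCF1 and 52.4 for OGT, 46.0% of HCF1 and OGT regions, and 1 peak of each in 100%. A score of 100 in all lists gave 1598 bp, 169.5 bp, a gap of 25145 bp with 17.9% within 5 kb, an HCF1 percentile of 52.3, a share of 27.1% and 1 peak of each in 91.8%. With no BAP1 within 1 kb the gap was 14571 bp, 24.6% were within 5 kb and the share was 21.0%. Without peaks over 5 kb the gap was 10694 bp and the share 25.2%. The causes were not tested, apart from fewer or shorter peaks by construction. The other 20 values stayed within 1.5 times the count or within their interval. No paired analysis was possible because no protein was measured in more than 1 library.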

Other observations

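The 3 highest OGT scores among the members went with HCF1 scores under 200; these regions were chosen after their values were seen. The region at chr10:5743719-5745853 (mm9) had an OGT score of 2342.67 in a peak of 2135 bp and an HCF1 score of 88.55 in a peak of 452 bp, 9.54 kb from BAP1. At chr1:184433341-184435215 the OGT score was 2249.88 and the HCF1 score 86.5. At chr12:75293228-75294220 they were 2214.82 and 185.74, and the nearest BAP1 peak was 227 kb away. The 4 members with the highest HCF1 score, 3100, had OGT scores of 533.07 at chr5:92773071-92779076, 387.02 at chr11:86392050-86401972, 303.69 at chr12:27153294-27159951 and 207 at chr16:97679535-97685860. The last of these began 46 bp after one of the 10 strongest regions, chr16:97665258-97679488.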
